A study of Homo sapiens with 9 samples.

Results

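The genes described here are 10 that act in tryptophan breakdown and in signalling by the aryl hydrocarbon receptor: the kynurenine-route enzymes IDO1, KYNU, KYAT1 and KYAT3, the receptor AHR, its dimer partner ARNT, its repressor AHRR, and the AHR-inducible genes CYP1A1, CYP1B1 and TIPARP. They were taken by gene name from the deposited gene table, 10 of 36785 genes, and all 10 were among the 21296 genes tested. They were chosen with their changes in sh1 and sh3 against shNC already known. Those changes are therefore given as a description, with the standard error (SE). Calls and adjusted p-values for these changes appear further below to describe the fits, and are not read as support.

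RNA was sequenced from SKOV3, a widely used line of human ovarian carcinoma cells with an amplified ERBB2 gene, after lentiviral transduction of every group. The control group, shNC, carried the genotype NC. The groups sh1 and sh3 were labelled STXBP6 knockdown_1 and STXBP6 knockdown_3, with 3 libraries in each of the 3 groups. Nothing in the labels tells whether the 3 libraries within a group were separate cultures or clones, so the p-values measure only the spread between these libraries. The libraries held 57654447 to 69264400 counts each. STXBP6, which encodes the syntaxin-binding protein amisyn, had 0 to 15 counts in shNC, 4 to 26 in sh1 and 18 to 31 in sh3, so the targeted gene could not check the labels and the names sh1 and sh3 rest on them alone. All 7 markers of the SKOV3 line and of epithelial cells averaged at least 1 FPKM, a level scaled by both gene length and sequencing depth. The 11 hepatocyte markers in the table summed to 3.86 to 4.20 CPM (read counts scaled to a common library total, with the totals adjusted by trimmed means) in shNC, 14.7 to 15.9 in sh1 and 17.8 to 36.5 in sh3. The SKOV3 and epithelial markers summed to 10956 to 12136 CPM in shNC, 6946 to 7199 in sh1 and 11179 to 11519 in sh3, most of it ERBB2. In sh1 the means of ERBB2, KRT18, KRT19, EPCAM and PAX8 were below shNC, and those of KRT7 and KRT8 above it. Leukocyte markers summed to 31.9 to 35.1, 24.9 to 27.2 and 41.4 to 43.2 CPM, nearly all of it CD68. PTPRC was at 0 in 8 libraries. Endothelial markers summed to 1.95 to 2.37 CPM in shNC, 0.121 to 0.544 in sh1 and 0.589 to 0.893 in sh3, and fibroblast markers to 74 to 93.6, 109 to 111 and 81.8 to 84.5 CPM. Of the fibroblast markers only COL1A1 had a higher mean with either hairpin than in the controls. Its means for shNC, sh1 and sh3 were 51.2, 87.3 and 68.3 CPM. The means of LUM, DCN, PDGFRA and PDGFRB were below the control mean with both hairpins. Listed by group in the same order, LUM averaged 27.6, 19.9 and 9.77 CPM, and DCN 5.15, 0.743 and 2.57. The part of these other cell types' markers in the results was not tested.

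Tryptophan is opened to formylkynurenine by IDO1, IDO2 or TDO2 and released as kynurenine. Kynureninase (KYNU) cleaves kynurenine and hydroxykynurenine towards anthranilate and NAD, and the aminotransferases KYAT1 and KYAT3 turn kynurenine into kynurenic acid. Kynurenine and kynurenic acid are among the ligands of AHR, a cytosolic receptor held by HSP90 that enters the nucleus on binding, pairs with ARNT and induces CYP1A1, CYP1B1, TIPARP and its own repressor AHRR. IDO1 is a classic interferon gamma gene, and tumour cells that express it can deplete tryptophan around T cells.

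The 250 bases upstream of the start were read for 8 of the 10 genes from RefSeq (build GRCh38.p14). IDO1 and CYP1B1 had no entry. Windows of 4 genes are shown because they hold letters bound by the factors of these pathways, with genes that were lower beside TIPARP, which was not lower with both hairpins. Capitals mark matches, each sequence runs 5′ to 3′ in the direction of its gene, and a match is a description of letters only. The CYP1A1 window (chr15:74725529-74725778, minus strand) has GCGTG, the core of the AHR response element, 57 to 53 bases before the start. The AHRR window (chr5:321464-321713, plus strand) has the longer form TNGCGTG 32 to 26 bases before it. The TIPARP window (chr3:156674340-156674589, plus strand) has the reverse complement of the core, CACGC, at 208 to 204 and again at 142 to 138 bases. These are the first of 3 TIPARP and of 2 AHRR windows in the table, for different starts, and were shown because they hold matches. The other TIPARP windows have none of the letters searched, and the other AHRR window (chr5:322360-322609) has GCGTG 2 times. The KYNU window (chr2:142877414-142877663, plus strand) has TTCNNNGAA, the gamma-activated site, 34 to 26 bases before the start.
CYP1A1: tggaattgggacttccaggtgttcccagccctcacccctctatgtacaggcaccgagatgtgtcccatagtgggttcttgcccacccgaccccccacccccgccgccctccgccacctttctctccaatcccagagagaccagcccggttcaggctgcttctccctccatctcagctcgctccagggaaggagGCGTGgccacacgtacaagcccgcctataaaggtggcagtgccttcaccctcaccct
AHRR: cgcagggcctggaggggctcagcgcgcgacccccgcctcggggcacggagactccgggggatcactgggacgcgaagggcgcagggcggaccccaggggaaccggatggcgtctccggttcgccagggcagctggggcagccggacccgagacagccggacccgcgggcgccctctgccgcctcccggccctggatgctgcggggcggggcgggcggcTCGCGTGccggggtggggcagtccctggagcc
TIPARP: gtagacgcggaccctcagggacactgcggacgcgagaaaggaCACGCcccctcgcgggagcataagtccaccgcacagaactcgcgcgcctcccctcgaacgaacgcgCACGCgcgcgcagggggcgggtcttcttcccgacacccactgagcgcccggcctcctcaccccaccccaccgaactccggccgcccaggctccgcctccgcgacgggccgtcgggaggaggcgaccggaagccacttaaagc
KYNU: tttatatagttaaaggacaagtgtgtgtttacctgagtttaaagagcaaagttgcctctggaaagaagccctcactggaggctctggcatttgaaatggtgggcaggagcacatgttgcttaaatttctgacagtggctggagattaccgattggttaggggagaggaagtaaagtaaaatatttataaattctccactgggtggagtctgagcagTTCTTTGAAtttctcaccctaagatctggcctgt

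GCGTG on either strand was in 32.2% of the 35116 upstream windows of this length and in 4 of the 13 windows of the 8 genes (those of CYP1A1, AHRR and TIPARP), a share near that of all windows. TNGCGTG, which contains it, was in 4.52% of windows, TTCNNNGAA in 6.57%, and the interferon-stimulated response element in 3.02%. KYAT1, with 3 windows in the table, held 1 match to each of these last motifs. The absence of a match says only that these letters are not in the window.

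Of the 4 enzymes, IDO1, which catalyses the first and rate-limiting step, had the largest difference from control. IDO1 (ENSG00000131203, GRCh38 chromosome 8, 39902275 to 39928790, plus strand) stood at 45.7, 51.1 and 36.1 CPM in the shNC libraries, at 10.2, 8.25 and 11.2 in sh1 and at 13.0, 11.8 and 12.3 in sh3. Every sh1 and sh3 library was below every shNC library, and the lowest control was shNC replicate 3. The mean of 3 libraries was 44.3 ± 7.61 CPM for shNC, 9.89 ± 1.51 for sh1 and 12.4 ± 0.624 for sh3 (± SD), which is 4.48-fold lower in sh1 and 3.58-fold lower in sh3. The log2 fold changes were -2.16 ± 0.133 and -1.84 ± 0.131 (SE). In bulk RNA, fewer cells with the message and less of it per cell cannot be told apart.

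**Figure D1:**
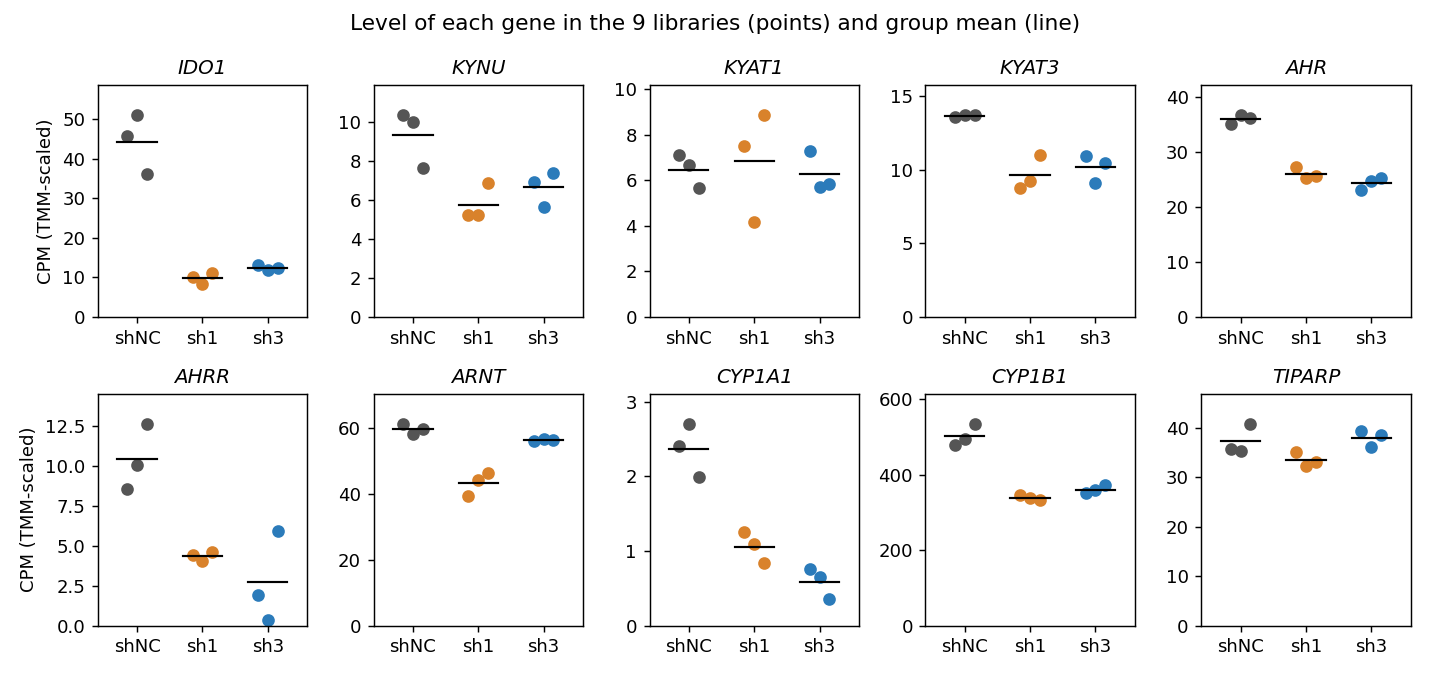
Level of each of the 10 genes, in CPM on a linear axis that starts at 0, in the 9 libraries (points) with the group mean (line). IDO1 lies at 36.1 to 51.1 CPM in shNC and at 8.25 to 13.0 in the other 6 libraries, while the KYAT1 points of the 3 groups overlap.

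KYNU (ENSG00000115919, chromosome 2, 142877657 to 143042172, plus strand) was a low-level gene that stood lower in both knockdown groups. It had 10.4, 10 and 7.66 CPM in shNC, 5.24, 5.21 and 6.87 in sh1, and 6.93, 5.62 and 7.41 in sh3. Every knockdown library was below every control, but the lowest control was only just above the highest sh3 library, and the sh1 and sh3 libraries overlapped. The log2 fold changes were -0.70 ± 0.163 in sh1 and -0.49 ± 0.162 in sh3 (SE).

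Of the 2 aminotransferases, KYAT3 was lower with both hairpins and KYAT1 overlapped the controls. They were not tested against each other. KYAT3 (ENSG00000137944, chromosome 1, 88935773 to 88992953, minus strand) had 13.6, 13.7 and 13.7 CPM in shNC, 8.77, 9.23 and 11 in sh1, and 10.9, 9.1 and 10.5 in sh3, with no overlap with the controls. Its log2 fold changes were -0.50 ± 0.107 and -0.43 ± 0.107 (SE). KYAT1 (ENSG00000171097, chromosome 9, 128832942 to 128882036, minus strand) had 7.1, 6.65 and 5.68 CPM in shNC, 7.5, 4.18 and 8.86 in sh1, and 7.28, 5.71 and 5.85 in sh3. Its groups overlapped, its log2 fold changes were 0.08 ± 0.228 and -0.04 ± 0.228 (SE), and sh1 replicate 2 was the lowest of all 9 libraries.

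The receptor and its repressor were lower with both hairpins, and the partner ARNT with sh1. AHR (ENSG00000106546, chromosome 7, 16916359 to 17346152, plus strand) had 35.1, 36.6 and 36 CPM in shNC, 27.3, 25.2 and 25.6 in sh1, and 23, 24.6 and 25.2 in sh3. Every knockdown library was below every control, with log2 fold changes of -0.47 ± 0.0544 in sh1 and -0.56 ± 0.0545 in sh3 (SE). ARNT (ENSG00000143437, chromosome 1, 150809713 to 150876708, minus strand), the partner that AHR needs to bind DNA, had 61.1, 58 and 59.6 CPM in shNC, 39.4, 44.1 and 46.4 in sh1, and 56, 56.7 and 56.4 in sh3. The sh1 libraries were well below both other groups, while the sh3 libraries sat just under the lowest control. Its log2 fold changes were -0.46 ± 0.0551 in sh1 and -0.08 ± 0.0548 in sh3 (SE).

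AHRR (ENSG00000063438, chromosome 5, 321759 to 435109, plus strand), which competes with AHR for ARNT, had 8.52, 10 and 12.6 CPM in shNC and 4.4, 4.06 and 4.6 in sh1. Its sh3 libraries had 1.92, 0.366 and 5.89 CPM, a wider spread than in either other group, and none overlapped the controls. The log2 fold changes were -1.25 ± 0.591 in sh1 and -1.93 ± 0.607 in sh3 (SE), and without sh3 replicate 3 the sh3 value was -3.16. The spread in sh3 went with reads assigned to a readthrough gene that covers AHRR on the same strand, PDCD6-AHRR (271670 to 438291). That gene had 268 and 300 counts in sh3 replicates 1 and 2 and 0 counts in each of the other 7 libraries. With both genes summed, the sh3 libraries held 5.84, 5.36 and 5.89 CPM, against 8.52 to 12.6 in shNC and 4.06 to 4.6 in sh1. The summed log2 fold changes were -1.25 ± 0.145 in sh1 and -0.87 ± 0.143 in sh3 (SE), an alternative chosen after seeing the data. The sum is lower than control in all 6 knockdown libraries, and on it AHRR is lower in sh1 than in sh3 rather than the reverse. The sum may contain reads of the upstream gene PDCD6, whose own counts of 2731 to 3889 gave no call in edgeR's quasi-likelihood test in any comparison (adjusted p = 0.6, 0.49 and 0.87 for sh1 against shNC, sh3 against shNC and sh3 against sh1).

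**Figure D2:**
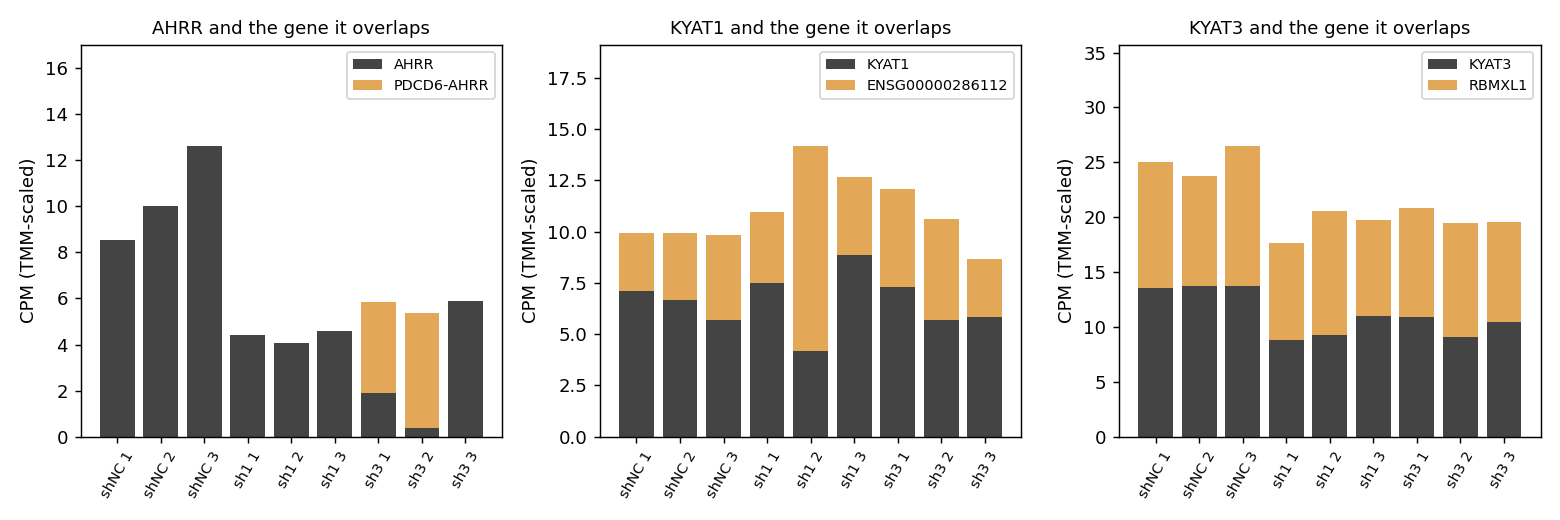
Stacked bars of CPM, on axes that start at 0, for AHRR, KYAT1 and KYAT3 (dark) and the same-strand gene that overlaps each (light) in the 9 libraries. The AHRR bars of sh3 replicates 1 and 2, at 1.92 and 0.366 CPM, reach 5.84 and 5.36 with the readthrough gene, level with replicate 3 at 5.89.

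KYAT1 and KYAT3 also overlap same-strand genes. The unnamed gene ENSG00000286112 (128819663 to 128881931) covers most of KYAT1 and took 578 counts in sh1 replicate 2 against 173 to 326 in the other 8 libraries. The sum of both was 9.85 to 9.95 CPM in the shNC libraries, 11 to 14.2 in sh1 and 8.68 to 12.1 in sh3, so sh1 replicate 2, the lowest library for KYAT1 alone, was the highest for the sum. KYAT3 (88935773 to 88992953) overlaps RBMXL1 (88979456 to 88992772), and their summed log2 fold changes were -0.38 ± 0.0714 in sh1 and -0.33 ± 0.0713 in sh3 (SE), both in the direction of KYAT3 alone.

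Of the 3 AHR-inducible genes, both cytochromes were lower with both hairpins and TIPARP was close to control. CYP1A1 (ENSG00000140465, chromosome 15, 74719542 to 74725536, minus strand), the standard readout of AHR activity, had 2.41, 2.7 and 1.98 CPM in shNC, 1.25, 1.09 and 0.835 in sh1, and 0.762, 0.649 and 0.36 in sh3. The 3 groups did not overlap and were ordered shNC, sh1, sh3, on raw counts that ran from 181 down to 22. CYP1A1 was 2.23-fold lower in sh1 and 3.99-fold lower in sh3, with log2 fold changes of -1.16 ± 0.279 and -2.00 ± 0.29 (SE).

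CYP1B1 (ENSG00000138061, chromosome 2, 38066973 to 38076154, minus strand), which oxidises oestradiol and polycyclic hydrocarbons, had 478, 495 and 534 CPM in shNC, 347, 338 and 331 in sh1, and 351, 358 and 372 in sh3. No knockdown library reached the lowest control, and the log2 fold changes were -0.57 ± 0.0405 and -0.48 ± 0.0404 (SE). TIPARP (ENSG00000163659, chromosome 3, 156673235 to 156706770, plus strand) encodes an ADP-ribosyltransferase that limits AHR signalling. It had 35.8, 35.4 and 40.8 CPM in shNC, 35.2, 32.3 and 33.2 in sh1, and 39.4, 36.2 and 38.5 in sh3. Its sh1 libraries lay just under the controls and its sh3 libraries among them, with log2 fold changes of -0.15 ± 0.0634 and 0.03 ± 0.0632 (SE).

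**Figure D3:**
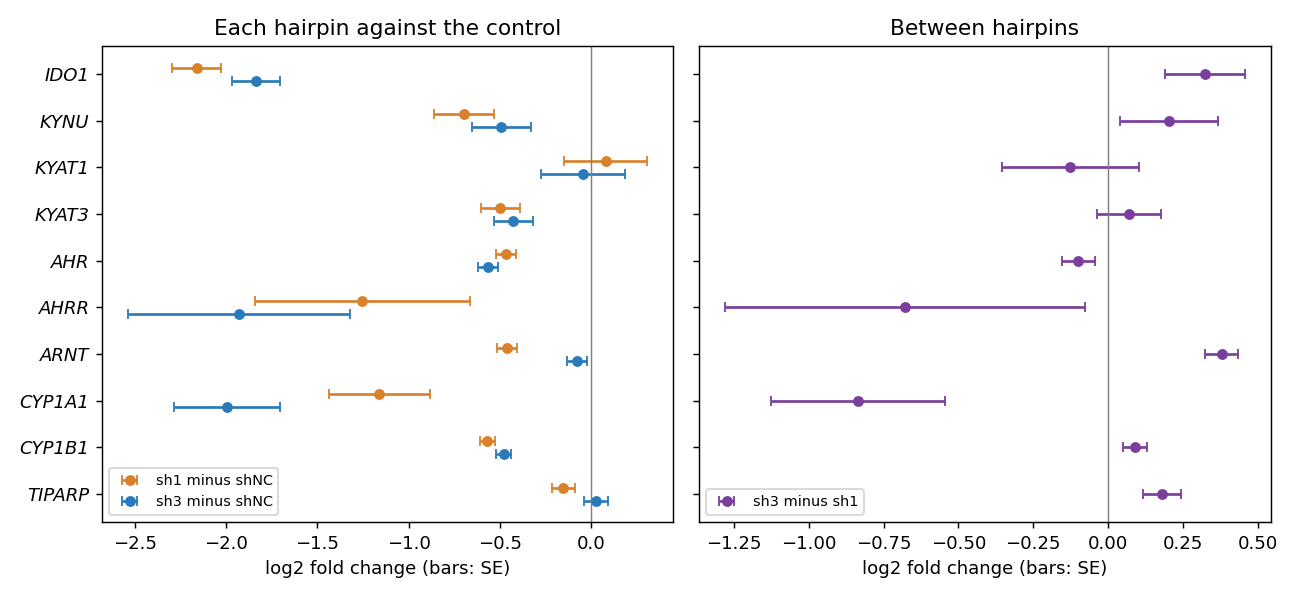
Log2 fold change of each of the 10 genes (points) with its SE (bars), for sh1 and sh3 against shNC on the left and for sh3 against sh1 on the right, on separate linear axes. IDO1 is at -2.16 and -1.84 on the left, and ARNT, at 0.38 on the right, has a short bar that stands clear of 0.

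Calls were made with edgeR's quasi-likelihood test, at a p adjusted over all tested genes by the Benjamini-Hochberg method that was under 0.05. In sh1, 7 of the 10 genes were called lower and 0 higher, where 18.8% of all tested genes were called lower and 19.9% higher. In sh3 the counts were again 7 lower and 0 higher, where 12.4% of tested genes were called lower and 14.4% higher. At an unadjusted p under 0.05 the counts higher were also 0 with either hairpin, and DESeq2 and limma called 0 higher too. The median log2 fold change of the 10 genes was -0.53 in sh1 and -0.49 in sh3, and that of all tested genes -0.02 and -0.01. Nothing is read from these counts and medians, since the genes were chosen on these comparisons, and both share the 3 shNC libraries.

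The choice of the genes did not name the comparison of sh3 with sh1, which was tested. It is the difference of the comparisons with shNC that were already known, so its p-values are not independent of that choice. ARNT was the 1 gene of the 10 called, 1.30-fold higher in sh3 than in sh1 (log2 fold change 0.38 ± 0.0552, SE). Its adjusted p was 3.7e-04 in edgeR's quasi-likelihood test, with a range of 5e-09 to 0.0024 over the alternatives. Every sh3 library (56.0 to 56.7 CPM) lay above every sh1 library (39.4 to 46.4 CPM). Over all tested genes 12.9% were called higher in sh3 and 13.0% lower, so 1 call in 10 genes is near the background. Of the 10 genes, 0 were called lower in sh3, with 1 at an unadjusted p under 0.05 and 1 by DESeq2, in each case CYP1A1. CYP1A1 was lower in sh3 than in sh1 by a log2 fold change of -0.84 ± 0.291 (SE), which missed the threshold in edgeR at an adjusted p of 0.055 (range 0.025 to 0.17 over the alternatives). TIPARP (0.18 ± 0.0634, SE; edgeR adjusted p = 0.058, range 0.02 to 0.19) and IDO1 (0.32 ± 0.132, SE; edgeR adjusted p = 0.099, range 0.039 to 0.32) also missed it. The remaining genes had adjusted p from 0.14 to 0.75 in edgeR. A miss does not show that the hairpins acted alike, and for AHRR the sign turned, from -0.68 ± 0.601 alone to 0.39 ± 0.145 with the readthrough gene summed (SE; edgeR adjusted p = 0.47 and 0.072).

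Levels can be compared between genes per length, in FPKM. In shNC CYP1B1 was far above the others at 77.7 ± 4.2 FPKM, followed by IDO1 at 11.8 ± 2.04, ARNT at 8.55 ± 0.241, TIPARP at 7.2 ± 0.56, KYAT3 at 5.75 ± 0.0155 and AHR at 4.13 ± 0.0787 (SD, n = 3 each). KYAT1 at 1.66 ± 0.191, AHRR at 1.01 ± 0.198, CYP1A1 at 0.647 ± 0.0993 and KYNU at 0.495 ± 0.0793 came last, and only the last 2 of these 10 genes overlapped each other among neighbours in the order. In sh1 IDO1, at 2.56 ± 0.381 FPKM, came after KYAT3 and AHR, and its libraries overlapped those of its neighbours AHR (2.92 ± 0.143) and KYAT1 (1.72 ± 0.601). In sh3 IDO1, at 3.27 ± 0.151, lay between KYAT3 (4.27 ± 0.389) and AHR (2.79 ± 0.152) with no overlap.

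Ratios within a library followed from these levels. ARNT exceeded AHR 2.07 ± 0.098-fold in shNC, 2.09 ± 0.248-fold in sh1 and 2.90 ± 0.128-fold in sh3, so the sh3 libraries had the highest ratio without overlap. CYP1B1 exceeded CYP1A1 123 ± 25.5-fold in shNC, 187 ± 36.2-fold in sh1 and 398 ± 182-fold in sh3 (SD of the FPKM ratio, n = 3 each). The IDO1 to TDO2 ratio, which compares the enzymes that open tryptophan, was 12.9 ± 1.36 in shNC, 3.57 ± 0.733 in sh1 and 3.26 ± 0.166 in sh3.

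**Figure D4:**
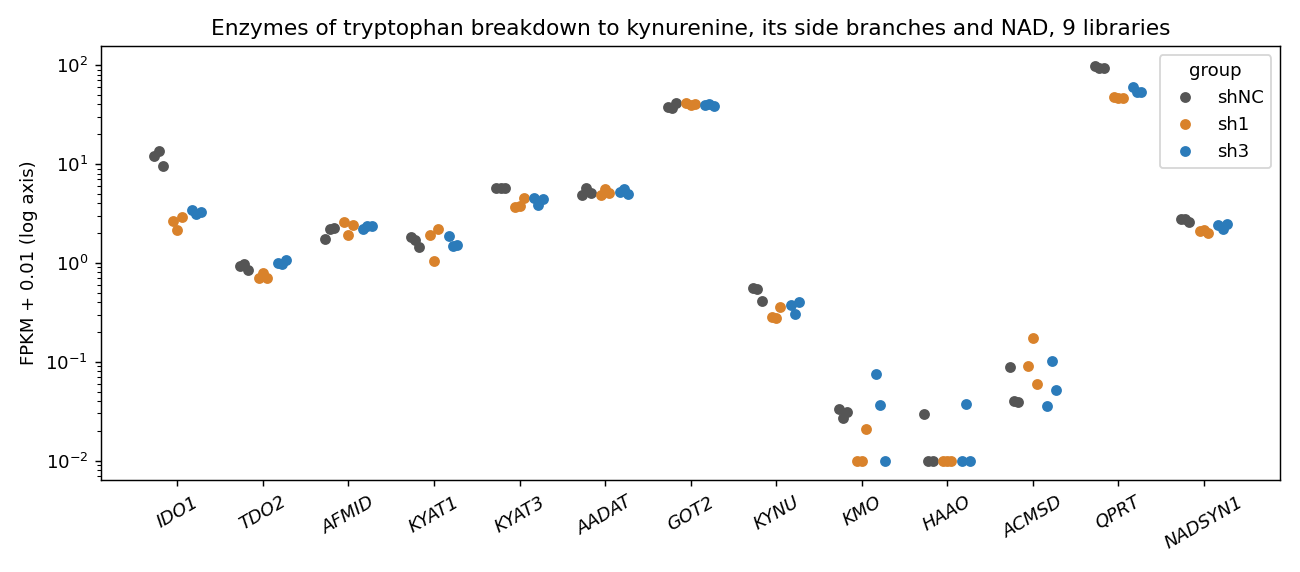
FPKM plus 0.01, on a log axis, of 13 enzymes of the route from tryptophan to kynurenine, its side branches and NAD in the 9 libraries (points), in pathway order. QPRT at 95.7 FPKM in shNC is the highest and HAAO, at 0 in 7 libraries, the lowest.

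The rest of the kynurenine route was read from a list of 14 further enzymes, of which 12 were tested. The lists described from here on were, like the 10 genes, chosen with earlier results of these data known, so their counts and tests are not independent support. With sh1, 3 of the 12 fell and 0 rose, and with sh3, 4 fell and 0 rose, in edgeR. That is 25% and 33.3% of the list lower, beside 18.8% and 12.4% of all tested genes. At an unadjusted p under 0.05, 1 and 0 were higher, and DESeq2 called 0 and 0. The median log2 fold changes were -0.23 and -0.10. QPRT, which makes the NAD precursor from quinolinate, averaged 380 ± 9.74 CPM over the 3 control libraries and fell to 191 ± 2.48 with sh1 and 221 ± 15.3 with sh3 (± SD), in 6 of 6 knockdown libraries. Its log2 fold changes were -0.99 ± 0.0434 and -0.78 ± 0.0432 (SE; edgeR adjusted p = 1.5e-08 and 2.6e-07). IL4I1, an amino acid oxidase that makes AHR ligands from tryptophan, fell by 1.5 and 1.05 on the log2 scale (edgeR adjusted p = 6.3e-04 and 0.0094). NADSYN1, the last enzyme of NAD synthesis, fell by 0.37 and 0.21 (edgeR adjusted p = 1.7e-04 and 0.011), and its sh3 call was lost in limma on FPKM (adjusted p = 0.061 and 0.06 at the 2 pseudocounts).

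The other tryptophan-opening enzymes were low. IDO2, the neighbour and paralog of IDO1, had 19 to 28 counts in shNC, 4 to 10 in sh1 and 0 to 5 in sh3, and passed the test in sh3 (edgeR adjusted p = 0.027) and not in sh1 (0.097), with no call between hairpins (0.43). The sh3 call was lost without any 1 of the 3 shNC libraries or sh3 replicate 2 (adjusted p = 0.05 to 0.082). TDO2 averaged 5.22 ± 0.343 CPM over the shNC libraries, 4.24 ± 0.272 over sh1 and 5.75 ± 0.247 over sh3 (± SD of 3 libraries) and was called in neither knockdown group against control. It was higher in sh3 than in sh1 by 0.44 ± 0.118 (SE; edgeR adjusted p = 0.017), a call lost without sh1 replicate 1 (0.063), sh1 replicate 3 (0.06) or sh3 replicate 3 (0.057). TDO2 is a liver enzyme, and the summed hepatocyte markers given above were also highest in sh3. The group mean in CPM was highest in sh3 for ALB, APOA1, APOA2, APOB, FGA, FGB, FGG, AHSG and TF. It was highest in sh1 for SERPINA1 and HP. Albumin, ALB, had 11 to 22 counts in shNC, 0 to 12 in sh1 and 339 to 967 in sh3. SERPINA1, which made up most of the sum in sh1, had 187 to 250 counts in shNC, 797 to 1052 in sh1 and 316 to 364 in sh3. HP had 0 to 8 counts over the 9 libraries, and 10 of the 11 markers were at 0 in some library. Their part in this result was not tested. KMO and HAAO lead from kynurenine to quinolinate, upstream of QPRT. KMO had 8 to 10 counts in shNC, 0 to 5 in sh1 and 0 to 29 in sh3. HAAO was at 0 in 7 libraries and at 4 and 5 counts in the others, near the limit of 3 counts (0.0433 to 0.052 CPM).

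In the list of tryptophan supply and other uses, 10 of 16 genes were tested. With sh1, 2 rose and 2 fell. With sh3, 0 were called in either direction, with 1 higher and 1 lower at an unadjusted p under 0.05 and the same numbers by DESeq2. The sh1 share, 20% of the list in each direction, was near that of all tested genes (19.9% and 18.8%), and none of the list was called with sh3, where 14.4% and 12.4% of all tested genes were. Between hairpins 3 were higher and 2 lower in sh3. That is 30% and 20% of the tested list, beside 12.9% and 13.0% of all tested genes. The amino acid exchanger SLC7A8 fell with sh1 from 6.03 ± 0.651 to 1.4 ± 0.309 CPM and had 5.82 ± 0.593 CPM with sh3 (± SD of 3 libraries). Its log2 fold change was -2.11 ± 0.177 in sh1 and 2.05 ± 0.177 in sh3 against sh1 (SE; edgeR adjusted p = 2.1e-06 and 7.5e-06). SLC7A5, the main tryptophan importer of tumour cells, rose with sh1 by a log2 fold change of 0.46 ± 0.107 (SE, edgeR adjusted p = 0.0049). It was at -0.04 in sh3, and was lower in sh3 than in sh1 by -0.50 ± 0.107 (SE, edgeR adjusted p = 0.0049). Its shNC libraries held 964, 961 and 1380 CPM and its sh3 libraries 1044, 1073 and 1089. Without shNC replicate 3 the sh3 value against shNC was 0.15 ± 0.0226 (SE, edgeR adjusted p = 4.6e-04). The monoamine oxidase MAOB, at 0 to 12 counts in shNC and sh1 and 28 to 71 in sh3, was called higher in sh3 than in sh1 (log2 fold change 3.61 ± 1.07, SE; edgeR adjusted p = 0.028). That call was lost without sh1 replicate 1 (adjusted p = 0.078), sh1 replicate 3 (0.076) or sh3 replicate 3 (0.13).

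All 15 listed genes of the AHR complex, its partners and coregulators were tested. With sh1, 5 rose and 7 fell, and with sh3, 4 rose and 7 fell, around median log2 fold changes of -0.03 and -0.10. These are 33.3% higher and 46.7% lower with sh1, beside 19.9% and 18.8% of all tested genes, and 26.7% higher and 46.7% lower with sh3, beside 14.4% and 12.4%. The chaperones that hold AHR in the cytosol rose with both hairpins. HSP90AA1 rose from 1244 ± 113 CPM to 2145 ± 10.3 with sh1 and 1824 ± 42 with sh3 (± SD of 3 libraries), by log2 fold changes of 0.79 and 0.55 (edgeR adjusted p = 2.4e-07 and 1.1e-05). HSP90AB1 rose by 0.40 and 0.32 (edgeR adjusted p = 1.7e-07 and 2.8e-06), and the cochaperone p23, PTGES3, by 0.26 and 0.22 (edgeR adjusted p = 4.9e-05 and 2.6e-04). The coactivator CREBBP was the remaining gene that rose with both.

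The corepressor NRIP1 fell from 128 ± 15.7 CPM to 70.6 ± 1.81 with sh1 and 102 ± 1.42 with sh3 (± SD of 3 libraries), by 0.86 and 0.33 on the log2 scale (edgeR adjusted p = 1.7e-06 and 0.0042). SP1, a factor that works beside AHR at the CYP1A1 promoter, fell by 0.41 and 0.25 (edgeR adjusted p = 3.7e-06 and 3.2e-04). RELB, an NF-kB subunit that can pair with AHR, fell by 0.67 with sh1 (edgeR adjusted p = 0.0012). Its sh3 value of -0.37 passed at an adjusted p of 0.045 and did not pass without any 1 of shNC replicates 1 and 2, the 3 sh1 libraries or the 3 sh3 libraries (0.055 to 0.2). ARNT2, the paralog of ARNT, was at 0.06 in sh1 and -0.26 in sh3 (edgeR adjusted p = 0.65 and 0.048), and the sh3 call did not survive leaving out shNC replicate 1 or 2, sh1 replicate 2 or 3, or any sh3 library (0.054 to 0.19). It was lower in sh3 than in sh1 by -0.32 (edgeR adjusted p = 0.02; 0.09 without sh1 replicate 1 and 0.09 without sh3 replicate 3), the opposite direction to ARNT in that comparison.

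**Figure D5:**
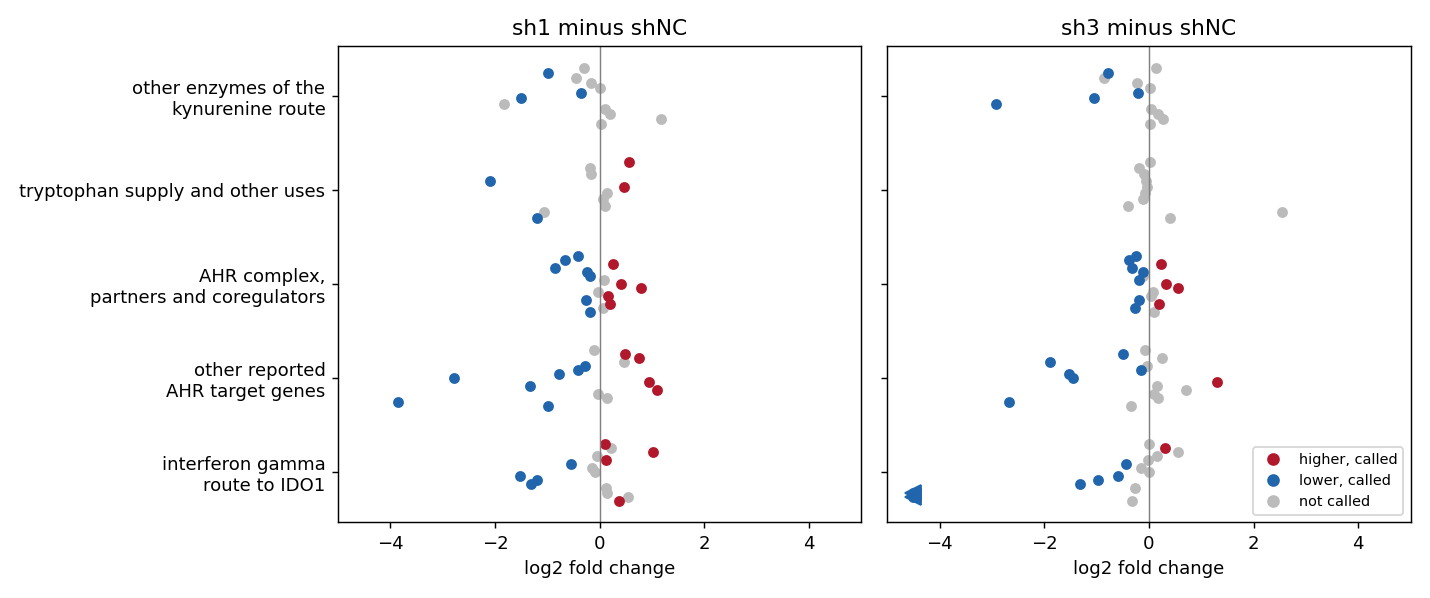
Log2 fold change of each tested gene (points) of the 5 pathway lists, for sh1 (left) and sh3 (right) against shNC, red or blue where called higher or lower and grey where not called. The axes end at -5 and 5, and the triangles at the left edge on the right stand for CXCL10 and CXCL11, which had 0 counts in all sh3 libraries.

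Among other reported AHR targets, 15 of 18 listed genes were tested. With sh1, 4 rose and 7 fell, and with sh3, 1 rose and 6 fell, with medians of -0.10 and -0.07. The shares were 26.7% higher and 46.7% lower with sh1 (19.9% and 18.8% of all tested genes), and 6.67% higher and 40% lower with sh3 (14.4% and 12.4%). The largest change was that of the aldehyde dehydrogenase ALDH3A1, a member of the classical AHR battery, with 32.4, 35.7 and 40 CPM in shNC, 2.59, 2.09 and 2.81 in sh1, and 5.57, 4.91 and 6.39 in sh3. It was lower in 6 of 6 knockdown libraries, by log2 fold changes of -3.85 ± 0.14 and -2.68 ± 0.131 (SE; edgeR adjusted p = 3.8e-09 and 1.2e-07), and higher in sh3 than in sh1 by 1.17 ± 0.135 (SE; edgeR adjusted p = 7.4e-05). Smaller values were found for the other battery genes measured here. NQO1 fell by 0.28 with sh1 and was at -0.04 in sh3 (edgeR adjusted p = 4.5e-05 and 0.48), and UGT1A6, which shares exons with the other UGT1A genes, rose with sh1 by 0.48 and fell with sh3 by 0.49 (edgeR adjusted p = 4.6e-04 and 9.1e-04).

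The cytokine IL1B fell by 2.79 and 1.46 (edgeR adjusted p = 2.5e-05 and 0.0032) and NFE2L2, the NRF2 factor, by 0.42 and 0.15 (edgeR adjusted p = 4.5e-06 and 0.014), the sh3 call lost without shNC replicate 2 (0.067) or sh3 replicate 3 (0.072). IL6 fell with sh3 by 1.52 (edgeR adjusted p = 0.0024). Its sh1 value of -0.79 passed at 0.049 and did not pass without shNC replicate 2 or 3 or any 1 of the 6 knockdown libraries (0.056 to 0.25). HES1, a Notch target with a reported AHR site, rose from 16.5 ± 2.25 CPM to 31.7 ± 0.741 with sh1 and 41 ± 1.61 with sh3 (± SD of 3 libraries), by log2 fold changes of 0.94 and 1.31 (edgeR adjusted p = 3.3e-06 and 6.1e-07). The growth factor EREG fell with sh1 by 1.33 and was at 0.16 in sh3 (edgeR adjusted p = 2.5e-04 and 0.62). The serpin SERPINB2 was at 0.46 in sh1 (adjusted p = 0.5) and lower in sh3 by -1.88 (edgeR adjusted p = 0.017). Its shNC libraries held 0.639, 3.76 and 4.07 CPM, and the sh3 call did not pass without shNC replicate 2 (0.066) or 3 (0.056) or sh3 replicate 1 (0.068) or 3 (0.07).

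In the interferon gamma route to IDO1, 15 of 17 listed genes were tested. With sh1, 4 rose and 4 fell, with sh3, 1 rose and 6 fell, and the medians were 0.11 and -0.27. With sh1 this was 26.7% in each direction, not far from the 19.9% and 18.8% of all tested genes, and with sh3 it was 6.67% higher and 40% lower, where all tested genes gave 14.4% and 12.4%. The receptor chains IFNGR1 and IFNGR2 were not called. IRF1, a transcription factor that acts on IDO1, fell by 0.54 and 0.44 (edgeR adjusted p = 0.0022 and 0.011), the sh3 call lost without shNC replicate 2 or sh3 replicate 1 or 3 (0.054 to 0.055). The guanylate-binding proteins, interferon-induced GTPases, were split. GBP2 fell by 1.31 and 1.32 (edgeR adjusted p = 8.2e-06 and 1.9e-05), GBP4 by 1.2 and 0.97 (edgeR adjusted p = 5.9e-04 and 0.0041), and GBP5 by 1.52 and 0.59 (edgeR adjusted p = 5e-06 and 0.0074). GBP1 was at 0.13 in sh1 and -0.27 in sh3 (edgeR adjusted p = 0.34 and 0.056).

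The chemokines CXCL10 and CXCL11 behaved unlike IDO1. CXCL10 had 0, 104 and 84 counts in shNC, 83, 84 and 102 in sh1, and 0 in all 3 sh3 libraries. With a floor of 3 counts over the sh3 group, it was at least 90.3-fold lower there than in sh1 and at least 62.7-fold lower than in shNC. CXCL11 had 15, 111 and 88 counts in shNC, 81, 69 and 81 in sh1 and 0 in sh3, at least 77.5-fold lower than in sh1. shNC replicate 1 was low for both chemokines and for SERPINB2, and not for IDO1.

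Over the 5 lists together, 67 of 76 genes in the table were tested. Of these 15 rose and 23 fell with sh1, and 6 rose and 23 fell with sh3, with median log2 fold changes of -0.06 and -0.09 beside -0.02 and -0.01 for all tested genes. The shares called lower were 34.3% with either hairpin, where 18.8% and 12.4% of all tested genes were. Those called higher were 22.4% with sh1 and 8.96% with sh3, where 19.9% and 14.4% of all tested genes were.

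Only IDO1 had both the level and the spread to look for genes of like pattern, a mean of at least 1 FPKM and an SD of log2 CPM of at least 0.5. Among 12489 genes with a mean of at least 1 FPKM, the nearest in centred log2 CPM over the 9 libraries were the epithelial sodium channel subunit SCNN1A (root mean square difference 0.18), the membrane raft protein MAL (0.23) and the ubiquitin ligase RNF144B (0.26). SCNN1A had 21.1 to 23.6 CPM in shNC, 4.33 to 5.14 in sh1 and 4.58 to 6.68 in sh3. MAL and RNF144B had 2.34 to 3.03 and 4.59 to 6.85 CPM in the knockdown libraries, against 9.92 to 11.5 and 17.2 to 20.5 in shNC. These are descriptions of 9 libraries that share their groups.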

How the data were processed

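Raw whole-number counts for each gene and library were deposited by the authors in a single table. The same table holds the authors' FPKM values, which correct for gene length and depth, per the file headers. Per the labels' protocols, RNA of integrity number above 7 was poly(A)-selected and made into dUTP-marked libraries read in pairs on a NovaSeq. Per the submitters' processing notes the build was GRCh38 and the tools included StringTie 2.1.6, HISAT2 2.2.1, cutadapt 1.9, edgeR and DESeq2. The role of each tool, and strand-specific counting, are not stated there, so genes that overlap are uncertain.

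Counts were tested with edgeR 4.0.16 in R 4.3.3 (glmQLFit and glmQLFTest after filterByExpr at a minimum count of 10 and TMM scaling). The model had a mean for each group, all 9 libraries, no replicate block and Benjamini-Hochberg adjustment over 21296 genes, two-sided. The SE of a log2 fold change came from the F statistic. Library totals were 57654447 to 69264400 counts, and a floor of 3 counts is 0.0433 to 0.052 CPM, for counting error only. All 9 replicate pairs differed beyond sampling noise, with a chi-square of 9.01 to 18.9 per degree of freedom. On counts simulated for sh1 against shNC (20520 genes tested), the fit called 77% of 100 genes changed 2-fold, 67% of 100 changed 1.5-fold and 7 unchanged genes. The simulation gave every gene the same fixed dispersion, not estimated from these libraries. These rates therefore do not measure the error of the reported calls. Alternatives were DESeq2 1.42.0, library totals, no filter, limma 3.58.1 on log2(FPKM + 1) and log2(FPKM + 0.1), only the 2 groups compared, a replicate block, each library left out in turn, and the sums over overlapping genes.

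The 10 genes and the 5 pathway lists were chosen with earlier results of these data known. From each list the text names up to 3 genes per direction called with both hairpins, by the smaller absolute log2 fold change of both, and up to 2 called between hairpins. IDO2, KMO, HAAO, SLC7A5, CREBBP, NQO1, UGT1A6, CYP2S1, STC2, NFE2L2, IFNGR1, IFNGR2, IRF1 and GBP1 were named after their values were seen. The listed genes ASMT, GSTA2, IFNG and CXCL9 were not analysed here.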

Additional observations from a re-analysis of the deposited data

Results flagged for a closer look

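The difference between sh3 and sh1 was tested directly in edgeR's quasi-likelihood fit. It passed an adjusted p of 0.05 for 23 of the named genes, given here as log2 fold changes of sh3 against sh1. Up to 2 genes per list were named because they passed in this comparison, and some others after their values were seen. The number 23 is therefore partly set by the naming and is not read as a result. Over all tested genes 12.9% were called higher in sh3 and 13.0% lower. Of the 10 genes described, the difference passed for ARNT at 0.38. Among the other enzymes of the kynurenine route it passed for QPRT at 0.21 and TDO2 at 0.44, and in tryptophan supply and use for MAOB at 3.61, SLC7A8 at 2.05 and SLC7A5 at -0.50. In the AHR complex and its coregulators the values were -0.23 for HSP90AA1, -0.081 for HSP90AB1, 0.53 for NRIP1, 0.16 for SP1 and -0.32 for ARNT2. The HSP90AB1 call was lost without any 1 of the 3 sh1 libraries or without sh3 replicate 1 or 3 (adjusted p = 0.063 to 0.13), with library totals (0.05), with no filter (0.07) and in limma on FPKM (0.3). Among reported AHR targets the values were 0.37 for HES1, 1.17 for ALDH3A1, 1.33 for IL1B, -2.34 for SERPINB2, 1.49 for EREG, 0.24 for NQO1, -0.97 for UGT1A6 and 0.27 for NFE2L2. In the interferon gamma route GBP5 was at 0.93 and GBP1 at -0.40, and the fitted values of CXCL10 and CXCL11, at 0 counts in all sh3 libraries, were -9.51 and -9.29 and depend on the prior count.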

How the results depend on the processing

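Of 17 alternatives, the number of the 10 genes called lower ranged from 7 to 8 in sh1 and from 5 to 7 in sh3, and the pathway counts stayed within 1.5 times the reported ones. Between hairpins, where 1 of the 10 genes was called higher in sh3, DESeq2 called 3 higher, library totals 2, limma on FPKM 2 with either pseudocount, the fit of only the 2 groups compared 3, and leaving out 1 library gave 1 to 4, the most without shNC replicate 3. The added calls were of TIPARP, IDO1 and CYP1B1. Where 0 were called lower, DESeq2 called 1 and leaving out 1 library gave 0 to 1. The sh3 value of AHRR was -0.69 in limma on log2(FPKM + 1), which shrinks low genes, and its sh3 call was lost in DESeq2 (adjusted p = 0.054), with no filter (0.069), in the fit of only the 2 groups compared (0.062) and without 5 single libraries (0.051 to 0.12). The KYNU sh3 call was lost with no filter (0.081), in limma on FPKM (0.074 and 0.13), with the replicate block (0.062) and without 7 single libraries (0.05 to 0.15). Nothing is read from calls of the 10 genes against shNC, kept or lost, since the genes were chosen on those comparisons. Among pathway genes, no filter also ended the calls of RELB (0.09) and ARNT2 (0.1) in sh3, IL6 in sh1 (0.099) and MAOB between hairpins (0.057), and limma on FPKM those of RELB, ARNT2, SERPINB2 and CXCL10 in sh3, IL6 in sh1 and ARNT2 between hairpins at both pseudocounts (0.062 to 0.1). In the fit of only the 2 groups compared, RELB in sh3 (0.066) and IL6 in sh1 (0.077) were not called, nor was IL1B between hairpins in limma on log2(FPKM + 1) (0.18).

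Directions turned for values near 0, for 3 genes low in shNC replicate 1 and for AHRR between hairpins. Leaving out 1 library gave sh1 values of -0.011 to 0.82 for SERPINB2, -0.053 to 1.02 for CXCL10 and -0.35 to 0.53 for CXCL11, each lowest without shNC replicate 1. The range was -0.028 (without sh1 replicate 1) to 0.12 for ARNT2 in sh1, -0.12 to 0.032 (without sh3 replicate 2) for SLC7A8 in sh3, and -0.38 to 0.10 (without sh1 replicate 3) for KYAT1 between hairpins. GBP2 between hairpins was at 0.0079 with library totals, 0.011 and 0.028 in limma on log2(FPKM + 1) and log2(FPKM + 0.1), and -0.045 to 0.032 leaving out 1 library. SLC7A5 in sh3 ranged from -0.13 to 0.15 leaving out 1 library. The highest value, without shNC replicate 3, was called in edgeR (adjusted p = 4.6e-04). IFNGR1 in sh3 ranged from -0.058 to 0.059, with -0.021 by library totals. Between hairpins CREBBP ranged from -0.0090 to 0.0097, with -0.00057 in DESeq2, IFNGR2 from -0.042 to 0.033 and IRF1 from -0.012 to 0.15. AHRR between hairpins was at -0.68 in the main fit and at -1.91 to -0.16 leaving out 1 library. Summed with its readthrough gene it was at 0.39. The cause was not tested.

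Same-numbered libraries did not deviate together (correlations -0.03 to 0.02 over 9 pairs), so the numbers do not pair them. With the replicate block 1 of the 10 genes was called lower in sh3 than in sh1, CYP1A1 at -0.87 (adjusted p = 0.025), KYNU in sh3 was at -0.50 (adjusted p = 0.062), and the calls of RELB in sh3 (0.08) and MAOB between hairpins (0.059) were lost.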
